A study of Homo sapiens with 16 samples.

Results

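The genes described here are 48 genes that act in mitosis, taken by name from the 60642 gene symbols of the table. They are kinases, phosphatases and cyclins of mitotic entry (9 genes), the spindle checkpoint and the trigger of anaphase (9), mitotic kinesins (11), the centromere and kinetochore (7), spindle assembly and cytokinesis (9), and chromosome and transcription factors of G2 and M phase (3). The list was written by hand with earlier results of these data known, so its counts are no independent support. All 48 genes reached 1 TPM (the share of a transcript in its library, adjusted for its length) in at least 2 of 16 libraries and were among the 16636 genes tested. In LNCaP cells every one of them was higher with dihydrotestosterone (DHT) than with vehicle (VEH) in both replicates, and every one was lower when bicalutamide (BIC), enzalutamide (ENZ) or apalutamide (APA) was added to DHT. Every one was also higher in replicate 2 than in replicate 1 of each of the 8 treatment groups, by a median about as large as that of the DHT difference, and that gap decides how many of the differences pass a test.

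LNCaP is an androgen-responsive prostate cancer line, here of 1 clone. Cells were grown for 72 h with 5% fetal bovine serum, held for 48 h in 5% charcoal-stripped serum, which is poor in androgen, and treated for 48 h. VEH cells received both solvents, ethanol and DMSO. The DHT group received 10 nM DHT, a natural androgen, BIC.VEH, ENZ.VEH and APA.VEH cells received 10 µM of an antiandrogen (called antagonist below) without DHT, and BIC.DHT, ENZ.DHT and APA.DHT cells received 10 µM antagonist with 10 nM DHT. Each group had 2 biological replicates. The comparisons ask how androgen-deprived cells respond to DHT and how far each antagonist changes that response.

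Cells enter mitosis when CDK1 is activated by B-type cyclins, with the phosphatases of the CDC25 family removing inhibitory phosphates and the Polo-like and Aurora kinases driving centrosome separation and spindle formation. Kinesins slide, cross-link and shorten microtubules, the kinetochore ties chromosomes to them, and the spindle checkpoint holds the anaphase-promoting complex until all chromosomes are attached. Transcripts of many of these genes accumulate in G2 and M phase and are low in resting cells. In bulk RNA, fewer cells in these phases and less RNA per cell cannot be told apart.

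Many of the promoters carry 2 short sequences known from genes transcribed late in the cell cycle. These are the cell cycle homology region (CHR), searched as TTTGAA and TTTAAA, and the CCAAT box, which NF-Y binds. RefSeq promoter windows of GRCh38.p14, running from 250 bases before to 50 after the annotated start, were matched for 41 of the 48 genes. TTTGAA on either strand was in the window of 31 of the 41 genes (75.6%), against 18.2% of 27305 genes in the table. TTTAAA, which reads the same on both strands, was in 15 (36.6%, against 14.5% of all genes), and CCAAT was in 33 (80.5%, against 39.7%). Either CHR form was present in 37 of 41 (90.2%), against 27.9% of all genes. A CCAAT box on either strand that began 20 to 39 bases upstream of a CHR on the strand of the gene was found in 15 of 41 (36.6%) and in 1.04% of all genes. A gene with several annotated starts was counted once if any window held the match. These shares are a description without a test, and a match is not a bound site. The 150 bases before the start are shown for 5 genes that hold both kinds of motif close to the start and, for contrast, for TACC3, whose window held none of them. They are written in lower case in the direction of transcription, with CHR and CCAAT matches on either strand in capitals.
CCNB2, chr15:59104996-59105145, plus strand: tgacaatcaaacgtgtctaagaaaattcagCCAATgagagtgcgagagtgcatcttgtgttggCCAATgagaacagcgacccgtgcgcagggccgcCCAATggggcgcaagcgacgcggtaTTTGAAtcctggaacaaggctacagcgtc
PLK1, chr16:23678739-23678888, plus strand: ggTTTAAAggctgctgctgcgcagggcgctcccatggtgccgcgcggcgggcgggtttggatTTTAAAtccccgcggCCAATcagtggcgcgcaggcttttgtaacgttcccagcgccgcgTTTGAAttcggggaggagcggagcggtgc
CDC20, chr1:43358831-43358980, plus strand: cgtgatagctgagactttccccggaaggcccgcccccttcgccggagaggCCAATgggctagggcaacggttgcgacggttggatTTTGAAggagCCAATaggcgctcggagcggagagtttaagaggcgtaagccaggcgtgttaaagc
PRC1, chr15:90994536-90994685, minus strand: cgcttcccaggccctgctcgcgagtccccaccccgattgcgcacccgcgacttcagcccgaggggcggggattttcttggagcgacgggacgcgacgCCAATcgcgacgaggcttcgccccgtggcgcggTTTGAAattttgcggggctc
KIF4A, chrX:70289954-70290103, plus strand: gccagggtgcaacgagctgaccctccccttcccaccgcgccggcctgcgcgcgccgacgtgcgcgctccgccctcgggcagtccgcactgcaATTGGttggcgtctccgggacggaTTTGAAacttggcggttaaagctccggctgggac
TACC3, chr4:1720481-1720630, plus strand: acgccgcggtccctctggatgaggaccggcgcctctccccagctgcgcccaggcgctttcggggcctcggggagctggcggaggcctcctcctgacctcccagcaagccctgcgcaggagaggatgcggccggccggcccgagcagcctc

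In CCNB2, cyclin B2, the printed bases hold 3 CCAAT boxes upstream of the TTTGAA that begins 29 bases before the start, and the nearest was 25 bases from it. PLK1, the Polo-like kinase, had its TTTGAA at the same distance of 29 bases, with a CCAAT 73 bases before the start and further upstream a pair of TTTAAA matches. CDC20, the activator of the anaphase-promoting complex, had its TTTGAA between CCAAT boxes that begin 100 and 55 bases before the start. In PRC1, a microtubule cross-linker of the central spindle, the CCAAT and TTTGAA began 53 and 20 bases before the start. KIF4A, a chromosome-bound kinesin, carried the CCAAT on the opposite strand, seen here as its complement, 24 bases from TTTGAA. No CHR was found in the windows of CCNA2, AURKB, BUB1 and TACC3. Among the 35 genes with 1 annotated window, 27 of 37 TTTGAA matches were on the strand of the gene and the median match began 26 bases before the start, while the median CCAAT began 71 bases before it.

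**Figure D1:**
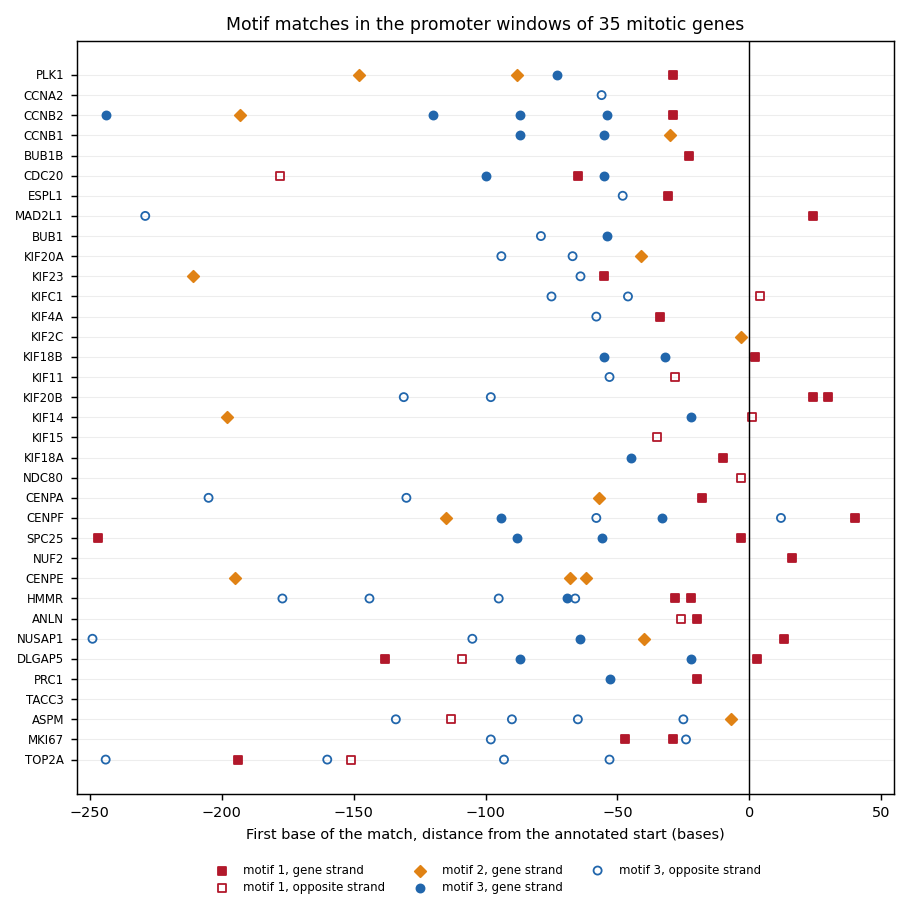
Positions of motif matches in the promoter windows of the 35 genes with 1 annotated window. The x axis is the distance in bases from the annotated start (line at 0), rows are genes, motif 1 is TTTGAA, motif 2 is TTTAAA and motif 3 is CCAAT, filled symbols are on the strand of the gene and open symbols on the opposite strand. Squares gather near the start (median first base at -26) and circles upstream of them (median at -71).

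The labels give about 40 M read pairs per library, but TPM do not give the reads behind a gene, so no counting interval is given. Genes at 1 TPM or more numbered 14652 to 15360 per library, and mitochondrial transcripts made up 14.7% to 22.3% of the total, with both ends of that range in the DHT group. All 8 luminal prostate markers were present at 2.5 TPM or more in all libraries. Of 10 markers of other cell types, TP63, KRT5, COL1A2, DCN, PTPRC, CD3E and PECAM1 stayed at or below 0.16 TPM. KRT14 reached 1.68 TPM, VWF was at 0.61 to 1.90 TPM, and COL1A1 was at 11.44 to 32.55 TPM while its partner COL1A2 was at 0 in 15 of 16 libraries. COL1A1 was lower with DHT and KRT14 higher, by log2 differences of -1.07 and 1.34, and their part in the results was not tested.

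The genes differed widely in level. BUB3, CDK1 and CCNB1 had the highest means over 16 libraries, 80.853, 78.071 and 62.914 TPM, and KIF14, ASPM and KIF18A the lowest, 1.191, 1.39 and 1.485 TPM. Since the levels of BUB3 ran from 55.76 to 124.74 TPM and those of CDK1 from 23.73 to 196.59 TPM, neighbours in this order overlapped. All 48 genes had their highest value in DHT replicate 2. For 36 the lowest was in ENZ.VEH replicate 1, and 25 of the 48 reached 1 TPM in that library, against 48 of 48 in every library of replicate 2.

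**Figure D2:**
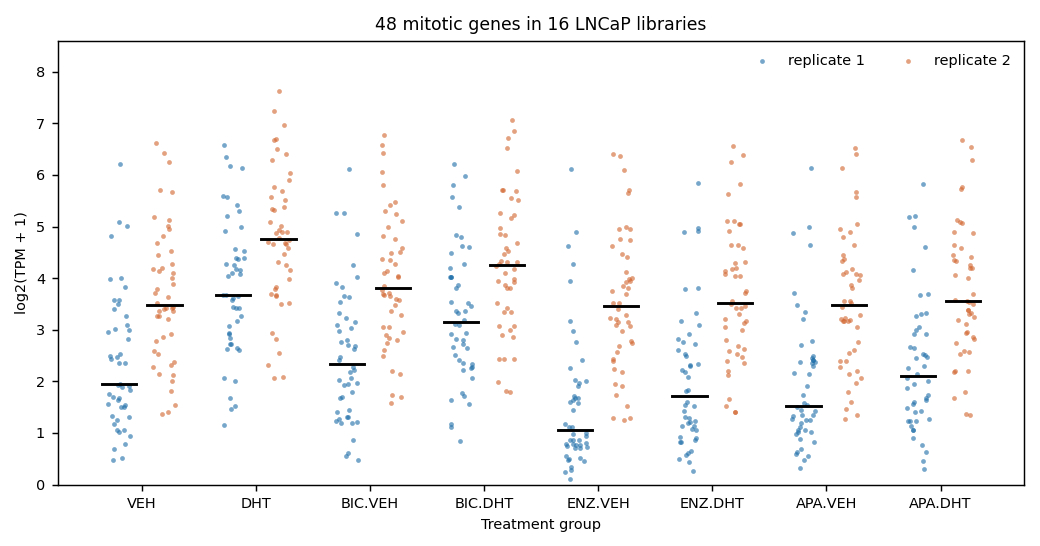
Levels of 48 mitotic genes in 16 libraries. The y axis is log2(TPM + 1), each point is 1 gene, colours are the 2 replicates of each treatment group, and black bars are the medians over genes. DHT has the highest median within each replicate (11.7 and 26.1 TPM), and in every group replicate 2 lies above replicate 1.

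Replicates differed in one direction. The median TPM of the 48 genes was 2.85 in VEH replicate 1 and 10.2 in VEH replicate 2, so that the DHT library of replicate 1, at 11.7, stood near the vehicle library of replicate 2. All 384 pairs of a gene and a group were higher in replicate 2. In a limma fit with the replicate number as a term, all 48 genes were called higher in replicate 2 at an adjusted p below 0.05, against 23.4% of the genes tested, with a median log2 difference of 1.43, against 0.03 over all genes. NUSAP1 and HMMR, which act on spindle microtubules, differed most, by 2.05 ± 0.21 and 2.04 ± 0.18 (SE) on the log2 scale. CDC25B and BUB3 differed least, by 0.30 ± 0.06 and 0.45 ± 0.06. The median ratio of replicate 2 to replicate 1 was 2.10 in DHT and 2.18 in BIC.DHT but 6.20 in ENZ.VEH, where the ratio of CENPA, the centromeric histone, reached 30.1 (0.18 and 5.42 TPM). Replicates carry the number 3 or 7 in the column names, in some followed by a letter A, B or C. In replicate 1 the VEH column had the letter A and the DHT column the letter C, and in replicate 2 both had B. What the number and the letter stand for is not given in the sources used here, and the letters did not enter the fit.

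Over the 16 libraries the replicate number accounted for a median of 59.9% of the variance of a gene on the log2(TPM + 1) scale and the treatment group for 35.1%, with 4.17% left. Across all genes tested the medians were 16.4%, 49.6% and 23.3%. The group share was the larger in 4 of the 48 genes, CDC25B (75.5% against 20.3%), TACC3 (55.3% against 42.8%), AURKB (50.6% against 45.1%) and NDC80 (48.0% against 45.9%). Because the spread between replicates enters the test unless it is modelled, each comparison is given without and with the replicate number as a block.

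The mitotic genes were higher together with DHT. The 48 genes were higher by a median ratio of 3.61 in replicate 1 and 2.26 in replicate 2, whereas 29.2% of all genes tested were higher in both replicates. The median log2 difference of the fit was 1.36, from 0.34 (BUB3) to 1.82 (NDC80), against -0.10 over all genes. Without the block, 1 gene was called higher (CDC25B), or 2.08% of the 48, where 3.63% of all genes tested were called higher. With the block 45 were called higher, or 93.8%, where 10.6% of all genes were. BUB3, PTTG1 and TOP2A did not pass, with adjusted p of 0.065, 0.077 and 0.053. Leaving out DHT replicate 1 reduced the 45 to 25, and leaving out VEH replicate 2 to 30. Both DHT libraries lay above both VEH libraries for 33 of the 48 genes, as they did for 20% of all genes. TPM are shares of a library, and after median-ratio scaling of the libraries the median of all genes moved from -0.10 to 0.01 and that of the mitotic genes from 1.36 to 1.48. That scaling changed the calls over all genes with the block from 1762 higher and 2797 lower to 2870 higher and 2173 lower. In the gene by gene account that follows, a fitted difference, its SE and its adjusted p are from the blocked fit unless stated otherwise. The counts called by role are parts of the 45 and not separate results. Each is to be read beside the 10.6% of all genes called higher with the block.

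**Figure D3:**
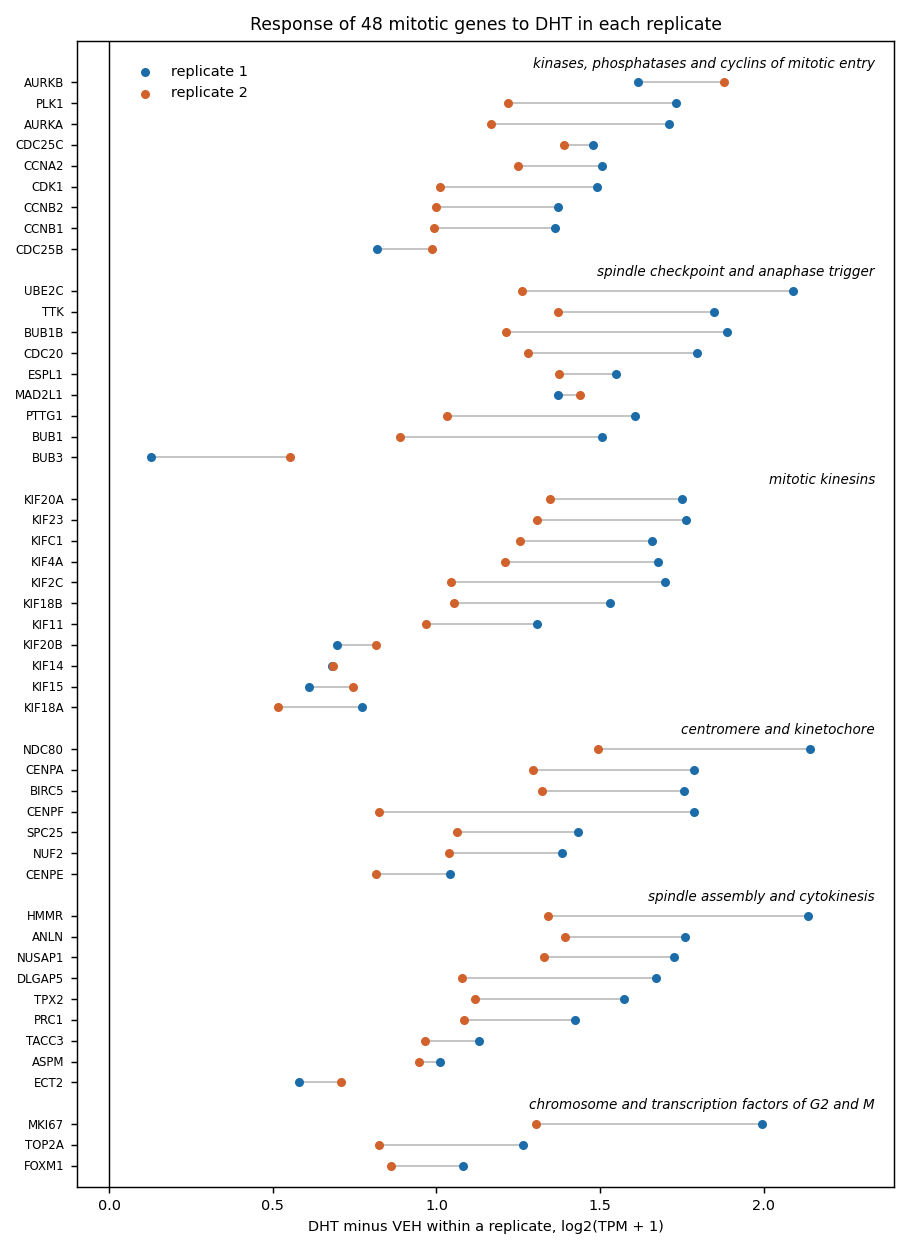
Difference between DHT and VEH within each replicate for 48 mitotic genes, on the log2(TPM + 1) scale (x axis), with rows grouped by role and colours marking the 2 replicates. All 96 points lie right of 0, and for 40 genes the difference was larger in replicate 1.

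CDK1, the kinase that starts mitosis, went from 33.18 to 95.06 TPM with DHT in replicate 1 and from 97.14 to 196.59 TPM in replicate 2. The DHT library of replicate 1 thus did not reach the vehicle library of replicate 2, and the fitted log2 difference of 1.25 had an SE of 0.88 without the block (adjusted p = 0.41) and of 0.16 with it (adjusted p = 0.00028). Its partner CCNB1, cyclin B1, went from 27.18 to 71.48 and from 74.68 to 149.67 TPM, a pattern of the same kind. CDC25B, a phosphatase that activates CDK1, went from 10.86 to 19.93 and from 12.87 to 26.45 TPM, and here both DHT libraries were above both VEH libraries. Its log2 difference of 0.90 ± 0.22 was the one that passed without the block (adjusted p = 0.026, and 3e-04 with the block), although this call was lost when VEH replicate 1, VEH replicate 2 or DHT replicate 2 was left out. PLK1 was measured at 8.58 and 30.8 TPM in replicate 1 and at 24.8 and 59.02 TPM in replicate 2. AURKB, the kinase of the chromosomal passenger complex, had the largest difference of this group, 1.75 ± 0.26 with the block, from 4.8 to 16.79 and from 9.88 to 39.03 TPM. All 9 genes of mitotic entry were called higher with the block.

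Among the genes of the spindle checkpoint and anaphase, 7 of 9 were called higher with the block. UBE2C, the ubiquitin-conjugating enzyme of the anaphase-promoting complex, rose by 1.68 ± 0.48 (adjusted p = 0.024), from 10.26 to 46.93 TPM in replicate 1 and from 34.16 to 83.22 TPM in replicate 2. TTK, the checkpoint kinase also called MPS1, had the highest ratio of DHT to VEH of all 48 genes, 7.21 in replicate 1 (0.72 and 5.19 TPM), and 3.0 in replicate 2 (3.85 and 11.56 TPM). CDC20, whose promoter is shown above, went from 9.57 to 35.75 and from 31.15 to 77.1 TPM. PTTG1, securin, the inhibitor that separase must shed before sisters part, was measured at 14.71 and 46.88 TPM and at 49.9 and 103.18 TPM. Its ratios of 3.19 and 2.07 lay within the range of the other genes, but its SE of 0.51 was the largest of the 48 genes. BUB3, a checkpoint protein that also has roles outside mitosis, stood apart with 73.03 and 79.86 TPM in replicate 1 and 84.83 and 124.74 TPM in replicate 2, ratios of 1.09 and 1.47.

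The 11 mitotic kinesins were all called higher with the block, by a median of 1.29. KIF20A and KIF23, motors of the central spindle, differed most, by 1.55 ± 0.29 and 1.53 ± 0.18. KIF20A went from 2.56 to 10.99 TPM in replicate 1 and from 9.5 to 25.72 TPM in replicate 2. KIF11, the motor that separates spindle poles, went from 1.52 to 5.23 and from 4.81 to 10.37 TPM, and KIF2C, a kinesin that takes microtubules apart at the kinetochore, from 2.88 to 11.6 and from 9.72 to 21.11 TPM. KIF14, KIF15, KIF18A and KIF20B had log2 differences of 0.64 to 0.76. These are also 4 of the 6 genes with the lowest mean levels, where adding 1 to the TPM shrinks a difference, and the ratios of KIF14 were 3.15 and 1.98.

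All 7 centromere and kinetochore genes were called higher with the block. NDC80, which links the kinetochore to microtubules, had the largest fitted difference of the 48 genes, 1.82 ± 0.33 (adjusted p = 0.0024), from 2.73 to 15.47 TPM in replicate 1 and from 8.24 to 25.01 TPM in replicate 2. CENPA went from 0.91 to 5.59 and from 4.2 to 11.76 TPM. CENPF, a large protein of the outer kinetochore, had unequal ratios, 3.98 in replicate 1 (4.62 and 18.4 TPM) and 1.82 in replicate 2 (16.2 and 29.42 TPM). BIRC5, survivin, a partner of AURKB, rose by 1.54 ± 0.41.

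Of the genes of spindle assembly and cytokinesis, 9 of 9 were called higher with the block. HMMR was at 2.83 and 15.83 TPM in replicate 1 and at 15.06 and 39.72 TPM in replicate 2, and TPX2, the activator of AURKA at the spindle, at 6.78 and 22.16 TPM and at 18.27 and 40.82 TPM. TACC3, which binds spindle microtubules with clathrin and whose promoter window held no motif, rose by 1.05 ± 0.11 (adjusted p = 8.7e-05), from 31.1 to 69.24 and from 51.24 to 101.02 TPM. ECT2, the exchange factor that places the cleavage furrow, had the smallest difference of this group, 0.64 ± 0.19.

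MKI67, the proliferation marker that coats mitotic chromosomes, rose by 1.65 ± 0.29 with the block (adjusted p = 0.0021), from 2.18 to 11.68 TPM and from 9.28 to 24.39 TPM. FOXM1, a transcription factor of G2 and M phase genes, rose by 0.97 ± 0.26, from 13.27 to 29.19 and from 27.32 to 50.48 TPM. TOP2A, the topoisomerase that untangles sister chromatids, was measured at 4.1 and 11.25 TPM and at 17.13 and 31.09 TPM, a log2 difference of 1.04 ± 0.36 that did not pass.

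In the presence of DHT the mitotic genes were lower with each of the 3 antagonists, with the smallest median difference for BIC. These comparisons share the 2 DHT libraries, which also enter the comparison with VEH. All 48 genes were lower than with DHT alone in both replicates for each antagonist, where 35.9%, 36.4% and 33.2% of all genes were lower in both with BIC, ENZ and APA. The median ratio to DHT was 0.656 in replicate 1 and 0.691 in replicate 2 for BIC. For ENZ it was 0.193 and 0.432, and APA gave 0.269 and 0.459. The fitted medians were -0.54, -1.46 and -1.28. Without the block limma called 0 genes in each (0, 2 and 3 genes at an unadjusted p below 0.05), against 1.68%, 4.91% and 4.11% of all genes called lower. At that unadjusted limit were 2513, 4380 and 4105 of the 16636 genes tested. With the block limma called 8, 47 and 47 genes lower, where the shares of all genes were 6.82%, 15.9% and 14.1%. The 8 of BIC.DHT became 0 without DHT replicate 1 or without BIC.DHT replicate 2 and 5 without DHT replicate 2, and the 47 of APA.DHT became 27 without DHT replicate 1. Both BIC.DHT libraries lay below both DHT libraries for 3 of 48 genes (CDC25B, NDC80 and TACC3, against 21.9% of all genes), both ENZ.DHT libraries for 34 (25%), and both APA.DHT libraries for 29 (22.2%).

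The genes called lower with BIC and the block were AURKB, TTK, KIF23, MAD2L1, CCNA2, TACC3, CDK1 and CDC25B. CDK1 fell by 0.58 on the log2 scale, from 95.06 to 62.43 TPM in replicate 1 and from 196.59 to 133.35 TPM in replicate 2. AURKB had the lowest fitted value, -0.92 ± 0.26, from 16.79 to 9.0 and from 39.03 to 18.92 TPM. NDC80 was next at -0.89 ± 0.33 and was not called (adjusted p = 0.11). KIF15 and CENPF showed the smallest differences, -0.12 ± 0.21 and -0.18 ± 0.41, and CENPF was at 18.4 and 15.24 TPM in replicate 1 and at 29.42 and 27.42 TPM in replicate 2. BIC.DHT stayed above VEH in all 48 genes in both replicates, with median ratios of 2.26 and 1.59, a comparison that was not fitted.

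With ENZ, CDK1 was at 29.18 TPM in replicate 1 and at 93.63 TPM in replicate 2, close to the VEH values of 33.18 and 97.14. NDC80 and NUSAP1 fell most with ENZ and the block, by 2.00 and 1.99 on the log2 scale, NUSAP1 from 38.26 to 5.59 and from 89.7 to 33.43 TPM. MKI67 went from 11.68 to 1.11 TPM in replicate 1, the lowest ratio of the 48 genes (0.095), and from 24.39 to 9.99 TPM in replicate 2. BUB3 and CDC25B had the smallest falls, 0.54 and 0.67. PTTG1 was not called with ENZ or APA (adjusted p = 0.073 and 0.19). Against VEH, ENZ.DHT was lower for 43 genes in replicate 1 and for 20 in replicate 2, with median ratios of 0.699 and 1.02.

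With APA and the block NUSAP1 and NDC80 fell most, by 1.88 and 1.84, and BUB3 and KIF18A least, by 0.47 and 0.61. CDK1 was at 35.4 and 100.78 TPM, and PLK1 at 8.6 and 23.96 TPM, against 8.58 and 24.8 TPM in VEH. AURKB went from 16.79 to 4.66 TPM in replicate 1 and from 39.03 to 8.84 TPM in replicate 2, the lowest ratio of the replicate (0.226). Against VEH, APA.DHT was higher for 24 genes in replicate 1 and for 33 in replicate 2, with median ratios of 1.00 and 1.04.

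**Figure D4:**
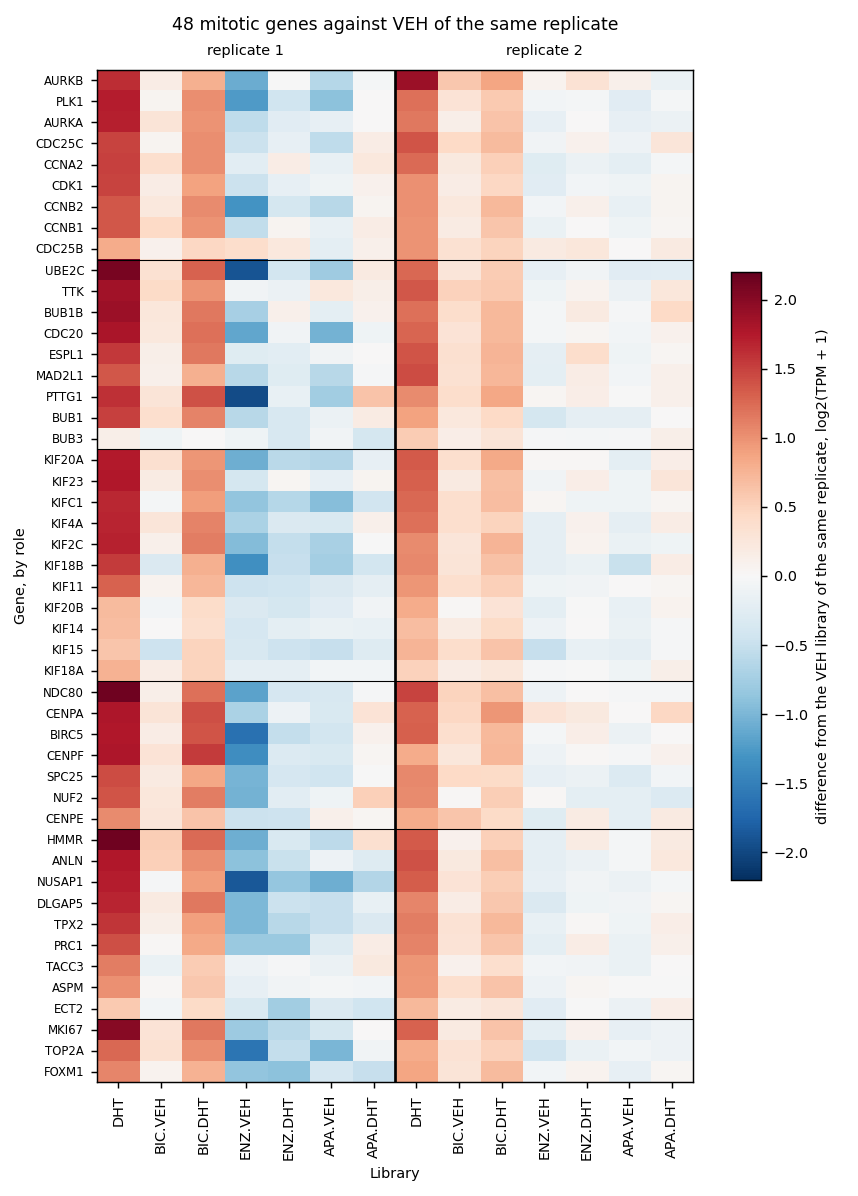
Difference of each library from the VEH library of the same replicate for 48 mitotic genes. Rows are genes by role, columns are libraries with replicate 1 left and replicate 2 right, and the colour is the difference on the log2(TPM + 1) scale. DHT is the darkest red column in each replicate, BIC.DHT is above VEH for 48 of 48 genes, and the ENZ and APA columns lie near or below VEH, most of all ENZ.VEH in replicate 1.

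The 3 antagonists were compared in pairs at the same dose and time with DHT present. ENZ.DHT was below BIC.DHT for 48 genes in both replicates, with median ratios of 0.283 and 0.647 and a fitted median of -0.95, and APA.DHT was below BIC.DHT for 48 genes in both, with median ratios of 0.419 and 0.662 and a fitted median of -0.71. No member was called in either pair without or with the block, although with it 47 and 41 genes had an unadjusted p below 0.05 (without it 0 and 0). Of the 16636 genes tested, 2062 and 1643 were below that limit with the block, and 565 and 483 without it. Over all genes tested 0.012% and 0.0541% were called with the block. The lowest adjusted p were 0.082 and 0.14. For CDK1 the 95% interval of the log2 difference with the block ran from -1.14 to -0.44 between ENZ.DHT and BIC.DHT and from -0.95 to -0.25 between APA.DHT and BIC.DHT. APA.DHT was above ENZ.DHT for 43 genes in replicate 1 and for 30 in replicate 2. The median ratio was 1.38 in replicate 1 and 1.03 in replicate 2. No gene of the 48 was called, and 0 had an unadjusted p below 0.05 in either fit. Of the 16636 genes tested, 102 without the block and 232 with it were below that limit. With the block 0.00601% of all genes were called. The interval ran from -0.16 to 0.54 for CDK1 and from -0.46 to 0.84 for MKI67. PRC1 was furthest apart, 0.475 on the log2 scale. Its level went from 8.02 TPM with ENZ to 16.92 TPM with APA in replicate 1, and was 33.49 and 32.55 TPM in replicate 2. The fitted median of this pair, 0.19, was -0.68 without ENZ.DHT replicate 1 and -0.54 without APA.DHT replicate 2 when no block was used. Leaving out a library without the block lets the replicate gap into the difference.

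Without DHT no gene of the 48 was called with limma in either fit. BIC.VEH was higher than VEH for 39 genes in replicate 1 and for 48 in replicate 2, with median ratios of 1.19 and 1.23. With the block 1 gene had an unadjusted p below 0.05, as did 539 of the 16636 genes tested, and 0.018% of them were called. ENZ.VEH was lower for 47 genes in replicate 1 (median ratio 0.437) and for 41 in replicate 2 (0.887). There, with the block, 9 genes had an unadjusted p below 0.05, as did 483 of the 16636 genes tested. No gene of the table was called (0%). UBE2C showed the contrast between replicates, at 10.26 TPM in VEH and 2.03 in ENZ.VEH of replicate 1 and at 34.16 and 29.97 TPM in replicate 2. TOP2A went from 4.1 to 0.68 TPM in replicate 1 and from 17.13 to 12.49 TPM in replicate 2, with an interval of -1.81 to -0.22 for the fitted difference. CDC25B was on the other side, at 10.86 and 14.45 TPM and at 12.87 and 14.84 TPM. APA.VEH was lower for 46 and 44 genes, with median ratios of 0.685 and 0.912. With the block 0 genes had an unadjusted p below 0.05, against 399 of the 16636 genes tested, and 0.012% of all genes were called. Without the block no member had an unadjusted p below 0.05 in any of the 3 comparisons, against 194, 139 and 151 of the 16636 genes tested. In that fit, leaving out a library sets the other replicate alone against a mean of both, so the replicate gap enters the difference. The fitted medians then changed sign, and nothing is read from this about single libraries. The median for BIC.VEH, 0.23, was -0.43 without VEH replicate 1 and -0.50 without BIC.VEH replicate 2. That for ENZ.VEH, -0.45, was 0.23 without VEH replicate 2 and 0.52 without ENZ.VEH replicate 1. That for APA.VEH, -0.22, was 0.39 without VEH replicate 2 and 0.57 without APA.VEH replicate 1. With the block the medians kept their sign without VEH replicate 1 or 2. They were 0.29 and 0.17 for BIC.VEH, -0.40 and -0.52 for ENZ.VEH, and -0.18 and -0.28 for APA.VEH.

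Within each antagonist DHT still came with higher levels of most genes, and none was called in either fit. The median ratio of BIC.DHT to BIC.VEH was 1.89 in replicate 1 (48 genes higher) and 1.26 in replicate 2 (46 higher). It was 1.6 and 1.14 for ENZ (39 and 43 higher) and 1.41 and 1.14 for APA (39 and 44 higher). With the block 18, 3 and 2 genes had an unadjusted p below 0.05 (0 in each without it). Of the 16636 genes tested, 768, 1588 and 1158 did so with the block, a larger share than among the 48 for ENZ and APA. Without it 234, 541 and 408 did. With the block 0%, 0.00601% and 0.024% of all genes were called. PTTG1 had the largest fitted difference in the ENZ and APA arms, 0.96 and 0.75, with 3.01 and 13.09 TPM in ENZ.VEH and ENZ.DHT of replicate 1 and 51.59 and 55.32 TPM in replicate 2. Without ENZ.VEH replicate 1 the median of the 48 genes for ENZ.DHT against ENZ.VEH went from 0.28 to -0.02 with the block. Without the block, where leaving out a library lets the replicate gap into the difference, the median changed sign in all 3 arms. For BIC it went from 0.57 to -0.17 without BIC.VEH replicate 1. For ENZ it went from 0.28 to -0.71 and -0.50 without ENZ.VEH replicate 1 and ENZ.DHT replicate 2. For APA it went from 0.26 to -0.50 and -0.43 without APA.VEH replicate 1 and APA.DHT replicate 2. With the block the BIC median was 0.56 without BIC.VEH replicate 1.

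Whether the response to DHT itself differed was tested as an interaction. The response was smaller with each antagonist for all 48 genes in the fit, with median interactions of -0.744, -1.005 and -1.001 for BIC, ENZ and APA on the log2 scale. With the block 4, 13 and 15 genes passed, where 3.15%, 5.72% and 4.91% of all genes had a smaller value that passed. Without it limma called 0 genes in each, with 0, 1 and 0 at an unadjusted p below 0.05. Of all 16636 genes tested, 0.667%, 1.05% and 0.805% then had a smaller value that passed. At that unadjusted limit were 1716, 2163 and 2184 of them. With the block TTK, CCNA2, MAD2L1 and CDC25B passed for all 3 antagonists. For TTK the interaction was -1.29 ± 0.27 for BIC, -1.55 ± 0.27 for ENZ and -1.47 ± 0.27 for APA. For PTTG1 it was -0.54 ± 0.72, -0.36 ± 0.72 and -0.57 ± 0.72. Single libraries moved these counts. For BIC the 4 became 0 without VEH replicate 1, DHT replicate 1, BIC.VEH replicate 2 or BIC.DHT replicate 2, 1 without VEH replicate 2 and 2 without BIC.VEH replicate 1. For ENZ the 13 became 4 to 6 without either VEH library, DHT replicate 1, ENZ.VEH replicate 2 or ENZ.DHT replicate 1, and 22 without ENZ.VEH replicate 1. For APA the 15 became 3 to 6 without either VEH library, DHT replicate 1 or either APA.VEH library.

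The pattern was not shared by all genes of these families. A list of 66 other mitotic genes, all tested, was written with earlier results of these data known and is no independent support. With DHT 63 of them were higher, with a median log2 difference of 1.12. With the block 61 were called higher, where 10.6% of all genes were. Without it 2 were (CENPN and KIF22), where 3.63% of all genes were. Of the 66, CENPN, a centromere protein chosen here after its values were seen, had by far the largest difference, 3.02 ± 0.12 with the block. Its adjusted p in the limma fit was 1.7e-07, and 0.00018 without the block. It went from 12.38 to 128.49 TPM in replicate 1 and from 21.42 to 151.03 TPM in replicate 2. Its replicates lay 0.46 apart in the fit, against a median of 1.43 for the 48 genes, of which CDC25B and BUB3 lay closer. WEE1, the kinase that inhibits CDK1, was at 25.57 and 22.12 TPM and at 35.47 and 26.16 TPM, and was not called (-0.31 ± 0.16 with the block).

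Kinesins that carry cargo or act outside mitosis had no such difference in their median. Of 29 on the list 23 were tested. With the block none was called higher with DHT, where 10.6% of all genes were, and 4 were called lower, where 16.8% of all genes were (KIF12, KIF27, KIF3C and KLC4, the last 2 also without it, where 6.64% of all genes were called lower), with a median of -0.21 against 1.29 for the mitotic kinesins and -0.10 for all genes. KIF3C, a neuronal transport kinesin, went from 13.83 to 6.38 and from 12.95 to 5.61 TPM. The 15 core subunits of the anaphase-promoting complex had a median of -0.05, with 3 called higher with the block (ANAPC13, ANAPC15 and CDC23) and 1 lower (ANAPC4), of which ANAPC13 was also called without it. Against the 10.6% and 16.8% of all genes, nothing is read from counts this small. Its activator CDC20 and its enzyme UBE2C were among the genes called higher with the block. CDC23 overlaps KIF20A in the annotation and was at 29.01 and 36.16 TPM and at 29.73 and 43.05 TPM. In the replicate comparison the non-mitotic kinesins and the complex had medians of 0.07 and -0.03, against 1.43 for the 48 genes. TTTGAA was in the promoter window of 1 of 19 matched non-mitotic kinesins, in 4 of 15 subunits of the complex and in 29 of 54 other mitotic genes. Of all genes 18.2% held it. TTTAAA was in 1, 1 and 4 of these genes, where 14.5% of all genes held it. CCAAT was in 5, 6 and 35 of them, where 39.7% of all genes held it.

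**Figure D5:**
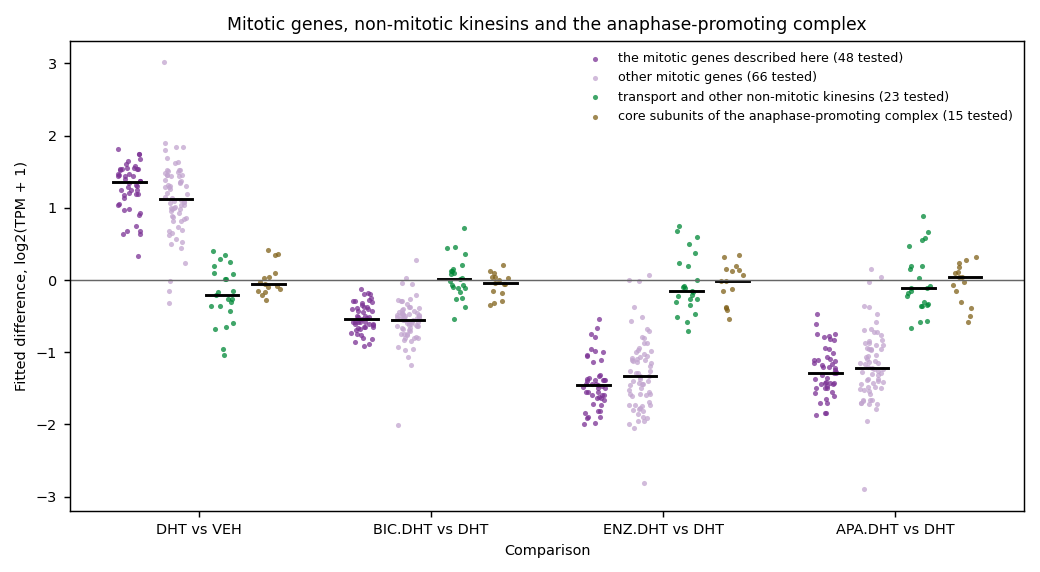
Fitted log2(TPM + 1) differences (y axis) of the 48 mitotic genes, 66 other mitotic genes, 23 non-mitotic kinesins and 15 subunits of the anaphase-promoting complex in 4 comparisons (x axis). Points are genes and black bars are medians. With DHT the medians of the mitotic lists are 1.36 and 1.12, and those of the other lists are -0.21 and -0.05.

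Over the 16 libraries the level of each gene followed the mean of the others. The Pearson correlation on the log2(TPM + 1) scale had a median of 0.987 and was at least 0.9 for 46 genes. KIF4A and TPX2 were closest at 0.997, and CDC25B (0.769) and BUB3 (0.88) were furthest. Within the 8 libraries of replicate 1 the median was 0.977 and within those of replicate 2 it was 0.98. These libraries share the replicate gap and the treatments, so the values are a description. BUB3 correlated at 0.566 within replicate 1 and at 0.977 within replicate 2, and KIF15 at 0.887 and 0.914.

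The 48 genes lie on 17 chromosomes in the RefSeq annotation of GRCh38.p14, so neighbouring genes do not make up the group. CDK1 (chr10:60778331-60794852), PLK1 (chr16:23678889-23690367), NDC80 (chr18:2571557-2616635) and MKI67 (chr10:128096659-128126423) are examples. In this annotation 25 of the 48 overlap another gene and 12 have a pseudogene with their name (AURKA, AURKB, BUB1, BUB3, CCNB2, CDC20, DLGAP5, KIF18B, MAD2L1, MKI67, PTTG1 and UBE2C, which has 5). Reads shared with such copies are divided by a model in RSEM, so these levels are less certain.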

How the data were processed

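RNA of LNCaP cells was sequenced in 16 libraries (8 groups, 2 biological replicates each; stranded TruSeq, polyA selection, Illumina HiSeq, 125 bp paired reads, about 40 M read pairs per library per the labels). Per the methods and the submitters' processing notes, the authors used FastQC 0.11.9, Trim Galore 0.6.5, STAR 2.7.2b with GRCh38 and RSEM 1.3.3 and deposited TPM per gene symbol, with no pooling. Whether the counting used strand is not given in the sources used here. TPM fix each library's total, so a rise of abundant transcripts lowers the rest, and the reads behind each gene are unknown.

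Genes with at least 1 TPM in 2 or more libraries (16636 of 60642) were tested on log2(TPM + 1) with limma 3.58.1 (R 4.3.3, moderated test with trend), with 8 group means and 1 shared spread. The fit with the replicate number as a block was made beside it. A call is a Benjamini-Hochberg adjusted p below 0.05 within a contrast over all genes tested. Replicate numbers (3 or 7 in the columns) paired the samples: the differences between replicates correlated across genes in all 28 pairs of groups (Pearson r from 0.204 to 0.635, limit 0.1). The fit without the block was run on simulated data for DHT against VEH, with no gap between replicates simulated. The blocked fit and the interactions were not tested in this way. Ratios are of TPM within a replicate. Intervals are 95% and from the blocked fit. Fold changes on log2(TPM + 1) understate low genes.

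The members, role groups and lists were written by hand, with earlier results of these data known, so the lists are no independent support. Genes given by library were fixed by name, with the 2 highest and 2 lowest per main comparison. Positions and promoters came from RefSeq tables (GRCh38.p14). TTK, UBE2C, BUB3, TPX2, FOXM1, AURKA and BIRC5 had no promoter entry. Figures were drawn with matplotlib 3.10.9 in Python 3.11.15. Alternatives were a pseudocount of 0.1, no filter, median-ratio scaling, only the groups compared, and each library left out.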

Additional observations from a re-analysis of the deposited data

Results flagged for a closer look

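The response to DHT differed between arms by a test of the difference itself, the interaction of antagonist and DHT in the limma fit with the replicate block. It was smaller with BIC for 4 mitotic genes, with ENZ for 13 and with APA for 15, each at an adjusted p below 0.05. These are 8.33%, 27.1% and 31.2% of the 48, where 3.15%, 5.72% and 4.91% of all genes tested had a smaller value that passed. The 3 interactions share the DHT and VEH libraries. The same model without the block called 0 of the 48 genes in each arm, where 0.667%, 1.05% and 0.805% of all genes tested had a smaller value that passed. Groups of 2 libraries were too small for a test of outlying samples within a group. Each library of the groups compared was left out in turn, and with the block the counts above fell in most of these fits. The median interaction of the 48 genes kept its sign. Without DHT replicate 1 it was -0.468 for BIC, -0.697 for ENZ and -0.725 for APA. Without DHT replicate 2 it was -1.004, -1.27 and -1.314. With all libraries it was -0.744, -1.005 and -1.001.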

How the results depend on the processing

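Without the replicate block, 1 mitotic gene was called for DHT against VEH, and 0 when only the groups compared entered the fit or, over single libraries left out, 0 to 1. Median-ratio scaling gave 1 for APA.DHT against DHT in place of 0. With the replicate block the counts were 45 for DHT against VEH, 8, 47 and 47 for BIC.DHT, ENZ.DHT and APA.DHT against DHT, and 4, 13 and 15 for the interactions of BIC, ENZ and APA, and it changed no other count. With the block, a pseudocount of 0.1 gave 40 for DHT against VEH and 5, 47 and 42 for BIC.DHT, ENZ.DHT and APA.DHT against DHT. It gave 2, 7 and 12 for the interactions of BIC, ENZ and APA. Testing without a filter gave 36 for DHT against VEH and 3, 45 and 40 for the antagonists against DHT. The interactions then gave 1, 8 and 9. Median-ratio scaling gave 47 for DHT against VEH and 9, 47 and 47 for the antagonists. The interactions then gave 4, 15 and 19. The blocked median for ENZ.DHT against DHT was -1.19 without DHT replicate 1 and -1.74 without DHT replicate 2. With the block and each library left out in turn, the counts ran from 25 to 42 for DHT against VEH, from 0 to 7 for BIC.DHT against DHT, from 27 to 44 for APA.DHT against DHT, from 0 to 1 for ENZ.DHT against BIC.DHT, and from 0 to 3, from 4 to 22 and from 3 to 17 for the interactions of BIC, ENZ and APA. The cause was not tested. The median of the 48 genes kept its sign in the DHT response and in all 3 antagonist comparisons with DHT alone, under every alternative tried. The reads behind each gene are unknown, so no limit from counting can be given.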
